A study of Bos taurus with 22 samples.

Results

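The genes described here are 10 components of the microvillus cytoskeleton, the actin scaffold of the absorptive brush border. They are VIL1, PLS1, ESPN, EPS8, MYO1A, MYO7B, CDHR2, CDHR5, USH1C and EZR, chosen by gene symbol from the 27570 genes of the count table. The rule reads no measured value, but the genes were chosen with earlier results of these data known. All 10 were found in the table, and all 10 passed the filter on low counts in each comparison. RNA-seq was made from jejunal mucosa scraped from growing Holstein steers, 1 library per steer, in a 2 × 2 factorial of abomasal infusion (water or casein) and subcutaneous injection (bovine serum albumin, BSA, or glucagon-like peptide 2, GLP-2). The purpose was to learn how casein reaching the small intestine and exogenous GLP-2, a gut hormone that promotes growth of the intestinal mucosa, affect the jejunal transcriptome. Each of the 22 steers was infused through the abomasum for 7 d with raw corn starch at 3.94 g per kg of body weight per day. Control steers (n = 5) were infused with water and injected with BSA vehicle, GLP-2 steers (n = 5) with water and 100 µg of GLP-2 in that vehicle per kg per day, casein steers (n = 6) with sodium caseinate at 1.3 g per kg per day and BSA, and casein + GLP-2 steers (n = 6) with caseinate and GLP-2 at those doses. Steers weighed 220.0 to 294.1 kg, were blocked by body weight, and each library came from a single animal. One further GLP-2 steer of the study was not analysed here.

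Microvilli are finger-like protrusions of the apical enterocyte membrane, each held up by a core of parallel actin filaments. Villin (VIL1), plastin 1 (PLS1), espin (ESPN) and EPS8 bundle those filaments, with EPS8 at the distal tip, and myosin 1a (MYO1A) and ezrin (EZR) tie the core to the surrounding membrane. The protocadherins CDHR2 and CDHR5 join the tips of neighbouring microvilli, and harmonin (USH1C) and myosin 7b (MYO7B) anchor those links inside the tip, an assembly called the intermicrovillar adhesion complex. Many of these genes increase as enterocytes leave the crypt and mature on the villus, and some, ezrin among them, are made in many cell types.

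Total counts per library ranged from 8809666 to 28447810, with a median of 12028560.5, and the 10 genes received between 110 counts (ESPN in a control steer) and 77432 counts (VIL1 in a GLP-2 steer). The tissue label was checked against 15 villus enterocyte markers such as APOA4, FABP2 and SI, and all 15 had counts in every steer. A group of 4 libraries stood apart. Casein replicate 3 and control replicates 1, 3 and 5 had a B cell follicle score (the mean log2 CPM, counts scaled to library size, of follicle markers such as CXCL13, CR2 and MS4A1) of 5.77 to 6.75, and in the other 18 steers the score was at most 3.57. All 4 were injected with BSA, and without them no gene of the whole table was called between GLP-2 and BSA (0 of 14285). None of the calls given below for that comparison was therefore made in that fit. It compared 11 GLP-2-injected steers with 7 BSA steers, and the part of the smaller group in the loss of calls was not tested. In bulk mucosa, fewer enterocytes and less RNA of a gene per enterocyte cannot be told apart.

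Levels of different genes were compared in FPKM, the deposited fragment counts scaled to gene length and library size. VIL1 (ENSBTAG00000018543, chr2:106422780-106446519, plus strand in ARS-UCD1.2) had the highest level of the 10 genes in 22 of 22 steers, at 711 ± 389 FPKM (SD, n = 22). PLS1 (ENSBTAG00000023429, chr1:126325256-126418836, minus strand) followed at 314 ± 243 FPKM. These were the most abundant filament bundlers, whereas ESPN (ENSBTAG00000006515, chr16:46910358-46943809, minus strand) was at 38.7 ± 23.2 FPKM. EPS8 (ENSBTAG00000000369, chr5:94125186-94321587, plus strand) had the lowest mean, 25.5 ± 16.2 FPKM, and was last in 17 of 22 steers.

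The membrane motor MYO1A (ENSBTAG00000014655, chr5:56378741-56406111, plus strand) was at 199.9 ± 96.0 FPKM and the membrane linker EZR (ENSBTAG00000010347, chr9:95156270-95201305, minus strand) at 135 ± 49.9 FPKM. Within the adhesion complex the 2 cadherins were more abundant than their anchors. CDHR5 (ENSBTAG00000047914, chr29:50687389-50694307, plus strand) had 206 ± 115 FPKM and CDHR2 (ENSBTAG00000025340, chr7:38024335-38070254, plus strand) had 95.5 ± 61.9 FPKM. The anchors MYO7B (ENSBTAG00000039803, chr2:4886912-4990264, minus strand) and USH1C (ENSBTAG00000000986, chr15:34963010-35011752, plus strand) had 42.9 ± 30.9 and 42.2 ± 17.2 FPKM.

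The order of neighbouring genes did not hold in all steers. CDHR5 was above MYO1A in 11 of 22 steers and MYO7B above USH1C in 8 of 22, so these pairs had no fixed order. PLS1 was above CDHR5 in 16 steers, MYO1A above EZR in 18, EZR above CDHR2 in 20, USH1C above ESPN in 16 and ESPN above EPS8 in 19. CDHR2 was above MYO7B in 22 of 22 steers.

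**Figure D1:**
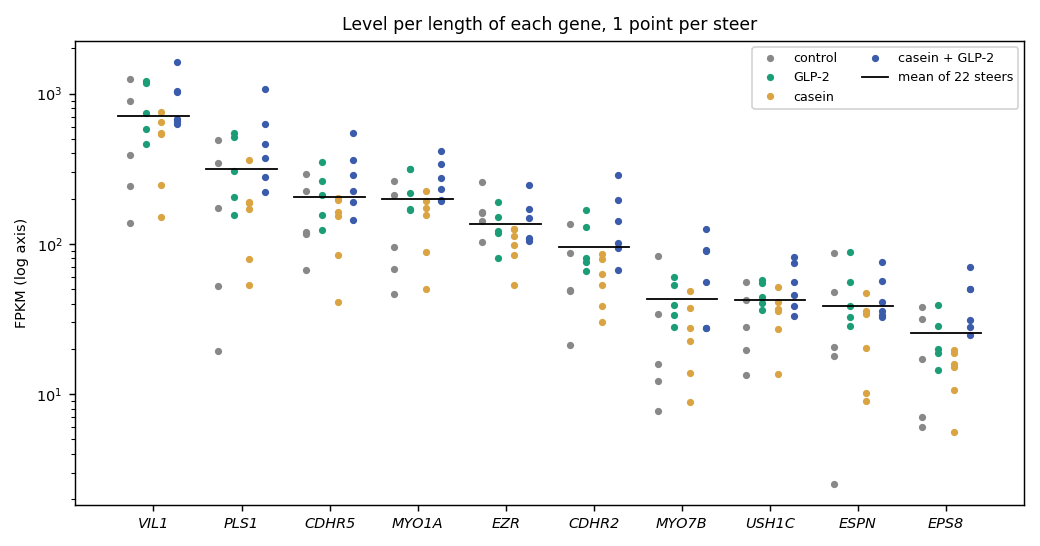
Level of each gene per length (FPKM, log axis) in the 22 steers, 1 point per steer, coloured by treatment, with a line at the mean of all steers. VIL1, at a mean of 711.1 FPKM, lies above the other 9 genes, and EPS8, at 25.5 FPKM, is at the bottom.

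Exogenous GLP-2 was compared with BSA over both infusions, 11 steers against 11. All 10 genes had a positive log2 fold change, as did 50.7% of all genes tested, and 3 of them rose, namely the filament bundler EPS8, the motor MYO1A and the tip-link cadherin CDHR2 (edgeR quasi-likelihood test, Benjamini-Hochberg adjusted p, padj, at most 0.05). Their folds were 2.03-fold (95% interval 1.28 to 3.22), 1.82-fold (1.22 to 2.72) and 2.05-fold (1.34 to 3.15). Over all 13928 genes tested, 5.13% rose at that threshold and 13.5% changed in either direction. MYO7B, USH1C, CDHR5 and PLS1 tended to be higher (padj at most 0.1, a level that 11.9% of all genes passed upward). VIL1 and ESPN did not reach the tendency level, and EZR showed the smallest difference. The median log2 fold change of the 10 genes was 0.83, against 0.01 over all genes tested, and 8 of 10 had an unadjusted edgeR p of 0.05 or less, against 16.5% of all genes upward.

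These calls depended on the steers and the model. With the body-weight block in the model 0 of 10 genes were called. The edgeR adjusted p-values ran from 0.0510 (CDHR2) upward, and the median log2 fold change was 1.00. In that fit 8 of 10 had an unadjusted edgeR p of 0.05 or less. The share of all genes at that level with the block is not given here. Without the 4 follicle-rich BSA steers, a choice made after the data had been seen, 0 were called, all 10 stayed positive, the median was 0.46 and the smallest adjusted p was 0.344, and 3 had an unadjusted p of 0.05 or less against 13.5% of all genes.

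Among the bundlers, EPS8 was at 28.4, 33.04, 82.9, 154 and 181 CPM in the 5 control steers and at 71.5, 92.1, 98.6, 137 and 184 CPM in the 5 GLP-2 steers. It ranged from 26.6 to 97.6 with a median of 74.9 CPM in casein steers and from 124 to 321 with a median of 195 CPM in casein + GLP-2 steers. The casein and casein + GLP-2 steers did not overlap, whereas 4 of the 5 GLP-2 steers lay within the control range. The share of all genes without overlap between these groups was not counted. EPS8 rose by 1.02 ± 0.32 (SE) on the log2 scale with GLP-2 (padj = 0.0407), and by 0.72 without the 4 follicle-rich steers (padj = 0.368).

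VIL1, the most abundant of the 10 genes, was at 362, 634, 1062, 2429 and 3345 CPM in control steers and at 1281, 1608, 2047, 3162 and 3209 CPM in GLP-2 steers. It ranged from 405 to 2048 with a median of 1485 CPM with casein and from 1741 to 4150.1 with a median of 2304 CPM with casein + GLP-2. All 5 GLP-2 steers were inside the control range, which the high control replicate 2 and the low control replicate 5 set. The log2 difference between GLP-2 and BSA was 0.77 ± 0.33 (SE), with a 95% interval of 0.08 to 1.46 and an adjusted p of 0.107.

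PLS1 had the widest spread of the 10 genes, 54.0-fold between the lowest and the highest of the 22 steers. It ranged from 46.9 to 1205 with a median of 436 CPM in BSA steers and from 394 to 2533 with a median of 929.8 CPM in GLP-2-injected steers. Its log2 difference was the largest of the 10, 1.17 ± 0.43 (SE), and tended to differ from 0 (padj = 0.0668). ESPN was between 8.53 and 299.6 CPM in BSA steers and between 99.7 and 297 CPM with GLP-2. No GLP-2-injected steer exceeded the highest BSA steer for ESPN, and its difference of 0.65 ± 0.39 (SE) did not pass (padj = 0.235, 95% interval -0.15 to 1.45).

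Among the motors, MYO1A was at 192, 281, 409.5, 902 and 1106 CPM in control steers and at 728, 737, 956, 1305 and 1329 CPM in GLP-2 steers. It ranged from 213 to 963 with a median of 711 CPM in casein steers and from 845 to 1666 with a median of 1088 CPM in casein + GLP-2 steers. Over both infusions 6 of 11 BSA steers fell below the lowest GLP-2-injected steer, and 5 of 11 GLP-2-injected steers lay above the highest BSA steer. MYO1A rose by 0.87 ± 0.28 (SE) on the log2 scale (padj = 0.0441), and the value without the 4 follicle-rich steers was 0.46 (padj = 0.370). MYO7B, the motor of the adhesion complex, ranged from 52.8 to 581 with a median of 156 CPM with BSA and from 196 to 869.7 with a median of 363 CPM with GLP-2, and tended to be higher by 1.02 ± 0.38 (SE) on the log2 scale (padj = 0.0668).

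Of the tip-link cadherins, CDHR2 was at 111, 255, 261, 464 and 724 CPM in control steers and at 360.4, 411, 440.8, 691 and 882 CPM in GLP-2 steers. It ranged from 161 to 462 with a median of 314 CPM with casein and from 363 to 1452 with a median of 652 CPM with casein + GLP-2. The lowest of the 11 GLP-2-injected steers was above 7 of the 11 BSA steers, the most of any of the 10 genes. CDHR2 rose by 1.04 ± 0.30 (SE) on the log2 scale and had the smallest adjusted p of the group (0.0307), with 0.72 (padj = 0.344) when the 4 follicle-rich steers were left out.

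Its partner CDHR5 ranged from 111 to 780.2 with a median of 414 CPM with BSA and from 339 to 1401 with a median of 622 CPM with GLP-2, a difference of 0.80 ± 0.30 (SE) on the log2 scale that was a tendency (padj = 0.0682). The scaffold USH1C ranged from 57.9 to 247 with a median of 165 CPM with BSA and from 149 to 342 with a median of 205 CPM with GLP-2, and also tended to be higher, by 0.63 ± 0.23 (SE) on the log2 scale (padj = 0.0664). The cadherin pair and its 2 anchors comprised 1 gene that rose and 3 with a tendency.

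The membrane linker EZR was at 303, 435, 479, 488 and 778 CPM in control steers and at 249, 363, 373, 452 and 557 CPM in GLP-2 steers. It ranged from 159 to 381 with a median of 318 CPM with casein and from 318 to 706 with a median of 393 CPM with casein + GLP-2. The BSA and GLP-2-injected steers overlapped almost wholly, with 1 BSA steer below the lowest GLP-2-injected steer and 0 GLP-2-injected steers above the highest BSA steer. The log2 difference was 0.12 ± 0.22 (SE), and its 95% interval ran from -0.33 to 0.58 (padj = 0.71). Leaving out casein + GLP-2 replicate 1 alone gave -0.01.

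**Figure D2:**
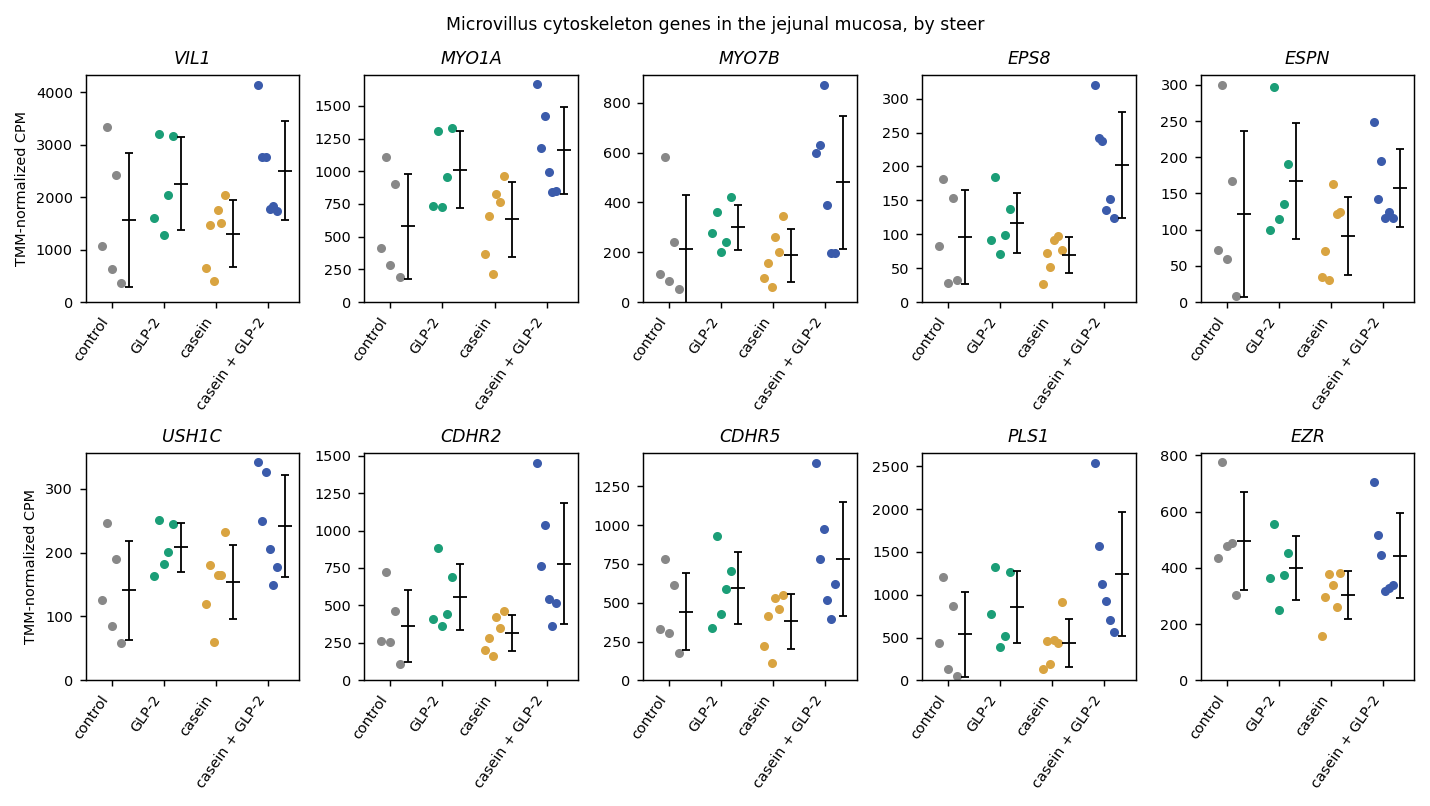
TMM-normalized CPM of each of the 10 genes by treatment, 1 point per steer (control and GLP-2, n = 5; casein and casein + GLP-2, n = 6), with bars for the mean ± SD (cut at 0). In the EPS8 panel the 6 casein + GLP-2 steers, 124 to 321 CPM, lie above the 6 casein steers, 26.6 to 97.6 CPM. In each of the other panels these groups overlap, and the share of all genes without overlap was not counted. Control replicate 2 is the highest control steer in all 10 panels.

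On the log2 scale BSA steers varied more than GLP-2-injected steers for 10 of 10 genes, most of which moved together across steers. The SD of log2 CPM was 1.06 with BSA and 0.52 with GLP-2 for VIL1, 1.42 and 0.51 for ESPN, and 0.77 and 0.66 for CDHR2, the gene with the closest values. In CPM the SD was larger with GLP-2 for CDHR2 (339 against 175), PLS1 (613 against 372), CDHR5, MYO7B and EPS8. It was smaller with GLP-2 for VIL1, MYO1A, ESPN, USH1C and EZR. This difference in spread was not tested, and its share over all genes was not counted. Control replicate 2 had the highest control value for all 10 genes and was the highest of all 22 steers for ESPN and EZR. Without control replicate 2, 8 of 10 genes were called, and without casein replicate 6, 6 were called. In contrast, 0 were called without any one of casein replicate 1, casein + GLP-2 replicates 1 and 3, control replicates 1 and 3, and GLP-2 replicates 3 and 6. The share of all genes called in each of these fits is not given here. These counts therefore cannot be read as particular to the 10 genes.

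Markers of other cells differed between the same groups, against 5.13% of all genes called higher and 8.37% called lower. Of 11 B cell follicle markers tested, 10 fell with GLP-2, and their summed level was 56.1 to 2323 CPM in BSA steers and 35.9 to 93.3 CPM in GLP-2-injected steers. By treatment the sums were 81.1 to 1773 CPM in control, 35.9 to 72.8 in GLP-2, 56.1 to 2323 in casein and 38.6 to 93.3 in casein + GLP-2 steers, and the markers PAX5, FCRLA and FCER2 were at 0 in some steers. Of 4 plasma cell markers 2 (DERL3 and TNFRSF17) fell, with sums of 68.1 to 5301 CPM with BSA and 52.9 to 1889.9 CPM with GLP-2. Of 15 villus enterocyte markers 2 (SLC5A1 and LCT) rose, with a median log2 difference of 1.02 and sums of 3217 to 84725 CPM with BSA and 28932 to 126599 CPM with GLP-2. All 15 had a positive difference, 10 of them at an unadjusted edgeR p of 0.05 or less, against 16.5% of all genes upward. DESeq2 called 5 of the 15 higher. Of 11 general epithelium markers 3 (CLDN7, CDH1 and EPCAM) rose, and of 9 crypt and proliferation markers 3 (MCM5, MCM2 and BIRC5) fell, these marker genes being named after their values were seen. Of 9 smooth muscle markers 0 were called by edgeR, 4 were lower at an unadjusted p of 0.05 or less and DESeq2 called 2 lower, with a median log2 difference of -1.12. Markers of T cells (7), macrophages (5), fibroblasts (6), goblet cells (4) and enteroendocrine cells (2) gave 0 calls by edgeR or DESeq2, with 1 goblet cell marker at an unadjusted p of 0.05 or less. With the body-weight block 8 follicle, 2 plasma cell and 2 general epithelium markers were called, and 0 villus enterocyte and 0 crypt markers. Without the 4 follicle-rich steers 0 markers of any list were called, and the median log2 difference was -1.12 for follicle, -1.01 for plasma cell, -0.24 for crypt, 0.62 for villus enterocyte and 0.11 for general epithelium markers.

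Adding the follicle score to the model left a median log2 difference of 0.085 for the 10 genes, with 6 above 0, 0 called and 0 at an unadjusted p of 0.05 or less, and 0 of all 13928 genes called. EPS8 (0.42), CDHR2 (0.36) and PLS1 (0.30) kept the largest values. With a score of 11 general epithelium markers such as EPCAM and CDH1 as the covariate, the median was 0.21 and 9 of 10 were above 0, led by EPS8 at 0.54, and 0 were called.

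**Figure D3:**
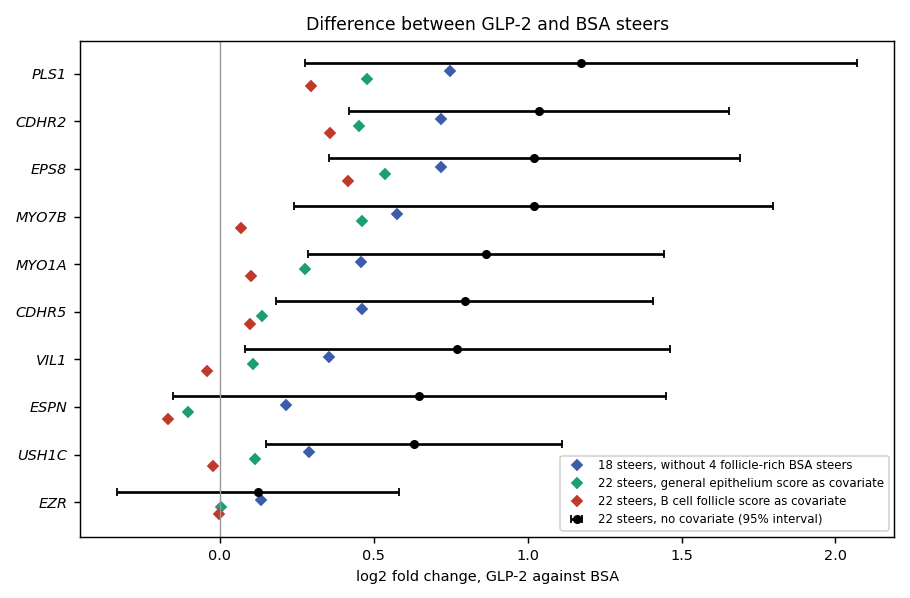
Log2 fold change of each gene between GLP-2-injected and BSA steers, with its 95% interval (black), and the values with the B cell follicle score as a covariate (red), with the general epithelium score as a covariate (green) and without the 4 follicle-rich BSA steers (blue). The black points run from 0.12 (EZR) to 1.17 (PLS1), and for 9 of the 10 genes each coloured point lies to the left of the black one, with EZR without those 4 steers as the exception at 0.14.

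The GLP-2 difference was then taken within each infusion. In casein-infused steers all 10 genes (and 48.1% of all genes) were higher with GLP-2, with a median log2 difference of 0.99 against -0.03 over all 15086 genes, and in water-infused steers 9 of 10 (and 52.6% of all genes) were higher, with a median of 0.51 against 0.04. None of the 10 genes was called in either contrast by edgeR, where 0% of all genes were called. At an unadjusted edgeR p of 0.05 or less there were 7 of 10 genes in casein-infused steers, against 9.88% of all genes upward, and 0 of 10 in water-infused steers, against 5.59% upward. By DESeq2's Wald test 2 genes, EPS8 and CDHR2, were called in casein-infused steers and 0 in water-infused steers. The share of all genes that DESeq2 called in these contrasts is not given here, so the 2 calls cannot be read as particular to these genes. Markers of other cells moved in the casein-infused contrast too, at the same unadjusted level, which 14.2% of all genes reached downward. There 12 of 13 B cell follicle and 4 of 4 plasma cell markers were lower. So were 6 of 9 smooth muscle and 5 of 10 crypt and proliferation markers. Higher were 7 of 15 villus enterocyte markers. Among 11 general epithelium markers 4 were higher and 1 lower. Among 5 macrophage markers 1 was higher, and among 6 fibroblast markers 1 was lower. Of all these markers 0 were called by edgeR. Their part in the values of the 10 genes was not tested.

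EPS8 had the largest of the 10 differences in casein-infused steers, 1.54 ± 0.41 (SE) on the log2 scale (edgeR padj = 0.118). PLS1 differed by 1.51 ± 0.60, MYO7B by 1.36 ± 0.51 and CDHR2 by 1.31 ± 0.40, with adjusted p-values of 0.152, 0.142 and 0.118. For CDHR2, 5 of 6 casein + GLP-2 steers lay above the highest casein steer. In water-infused steers the largest difference was that of MYO1A, 0.81 ± 0.43 (padj = 0.390), and EZR was lower by a log2 value of -0.32 (95% interval -0.91 to 0.28).

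The contrast in water-infused steers depended on which controls were kept. Leaving out the 4 follicle-rich steers left 2 controls, replicates 2 and 4. They were the 2 highest controls for each of the 10 genes (VIL1 at 3345 and 2429 CPM, the others at most 1062). In that fit 0 of 10 genes were higher with GLP-2 than in control steers, with a median log2 difference of -0.32. With only the highest controls left, the fit cannot decide the direction of this contrast. In casein-infused steers 10 of 10 remained higher with a median of 0.83. The share of all genes higher in this setting was not counted. Neither contrast called a gene of the 10 in that setting. The interaction of casein and GLP-2 was positive for all 10 genes and 47.3% of all genes (median 0.65 against -0.03 over all genes) with 0 called. Unadjusted edgeR p-values were 0.0369 for EZR (0.86 ± 0.39) and 0.0471 for EPS8 (1.26 ± 0.60), both with an adjusted p of 0.996, and 1.68% of all genes reached that unadjusted level upward. The GLP-2 differences within casein and within water were not shown to differ.

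**Figure D4:**
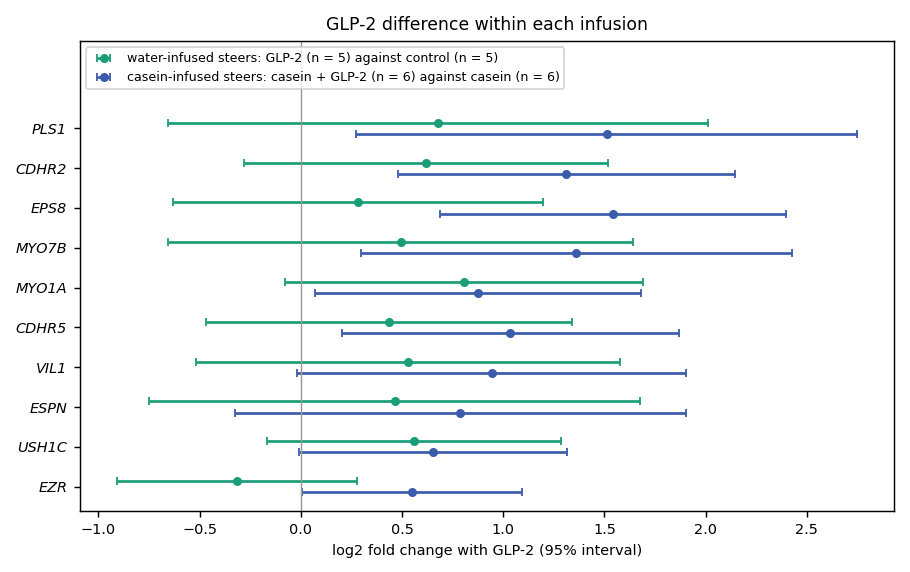
Log2 fold change with GLP-2 and its 95% interval, in water-infused steers (green, GLP-2 against control) and in casein-infused steers (blue, casein + GLP-2 against casein). The blue points run from 0.55 (EZR) to 1.54 (EPS8) and lie to the right of the green ones for all 10 genes, and the intervals of each pair overlap.

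Casein infusion was compared with water over both injections, 12 steers against 10. None of the 10 genes was called by edgeR, 0 had an unadjusted p of 0.05 or less, 0% of 14096 genes were called and 3.36% had an unadjusted p of 0.05 or less. DESeq2 also called 0 of the 10. The log2 differences ran from -0.26 (EZR, 95% interval -0.71 to 0.18) to 0.39 (MYO7B, -0.48 to 1.25), with a median of 0.18. VIL1 was at 1907 ± 991 CPM (SD, n = 12) with casein and 1914 ± 1097 CPM (n = 10) with water, a difference of 0.0041 on the log2 scale with a 95% interval of -0.75 to 0.76. Each interval for the 10 genes included 0, and that of PLS1 (-0.72 to 1.29) was the widest.

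Against control, casein alone gave a lower EZR, 303 ± 84.3 CPM (SD) in 6 casein steers and 496 ± 174 CPM in 5 control steers, a log2 difference of -0.71 ± 0.27 (SE). Its unadjusted edgeR p was 0.0159 and its adjusted p 0.820, so it was not called, and 2.76% of all genes reached an unadjusted p of 0.05 or less downward. The 2 groups overlapped, since casein replicates 3, 4 and 6, at 378, 339.9 and 381 CPM, lay above the lowest control steer at 303 CPM. Without the follicle-rich steers the EZR value was -1.15 and 0 of the 10 genes were called. In that fit 4 of the 10 had an unadjusted p of 0.05 or less, against 8.93% of all genes. Its only controls were replicates 2 and 4, the highest controls for each of the 10 genes. It therefore cannot decide the size or direction of this contrast. Casein + GLP-2 against GLP-2 gave a median of 0.30 and 0 of 10 genes called or at an unadjusted p of 0.05 or less, where 2.64% of all genes reached that level. These pairwise contrasts share the GLP-2, control and casein steers with those above.

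Across steers 9 of the 10 genes moved together. The Pearson correlation of log2 CPM between a gene and the mean of the other 9 was 0.91 to 0.98 for those 9 genes over 22 steers and 0.57 for EZR, as a description, since all values of a steer share its library. Over the 45 gene pairs the median was 0.90, the highest VIL1 with MYO1A at 0.98 and the lowest USH1C with EZR at 0.42. The motor MYO7B was closest to its complex partners CDHR2 and USH1C and to MYO1A, each at 0.94.

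Steers were ordered by the mean z score of the 10 genes. Control replicate 5 was lowest at -2.07, followed by casein replicate 3 at -1.59, casein replicate 1 at -1.43, control replicate 3 at -1.09 and control replicate 1 at -0.53. These 5 lowest steers were all injected with BSA and included the 4 follicle-rich steers. Casein replicate 1, at a follicle score of 3.17, had a plasma cell score of 6.71, below only control replicate 5 at 7.35. Casein + GLP-2 replicate 1 was highest at 1.55, and control replicate 2, a BSA steer, stood among the 3 highest at 1.04. The villus enterocyte score ran from 6.64 in control replicate 5 to 11.51 in casein + GLP-2 replicate 1.

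**Figure D5:**
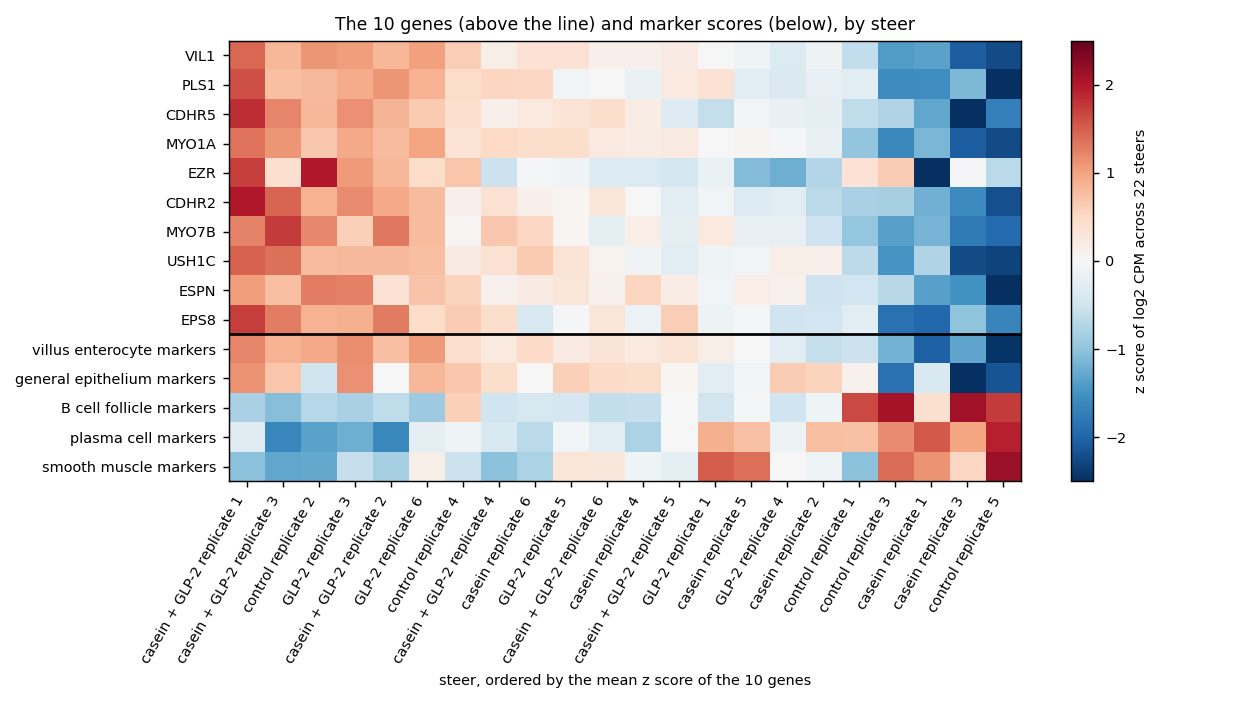
The 10 genes (rows above the line) and 5 marker scores (below) in the 22 steers, as z scores of log2 CPM across steers (red high, blue low), with steers ordered from left to right by falling mean z score of the 10 genes. The 5 steers at the right, from -0.53 to -2.07, are all BSA steers, and the EZR row follows the other 9 rows least.

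The ratio of EZR to VIL1 was less even. On the FPKM scale EZR was from 12.8% to 20.2% with a median of 16.0% of the VIL1 level in GLP-2-injected steers and from 15.6% to 83.4% with a median of 20.8% in BSA steers. The 4 highest ratios, 83.4% in casein replicate 3, 74.7% in control replicate 5, 67.4% in control replicate 3 and 36.6% in control replicate 1, belonged to the 4 follicle-rich steers, and the other 18 steers lay between 12.8% and 21.6%. The part of other cells in these ratios was not tested. MYO1A, the other membrane tie, stayed from 20.9% to 35.9% with a median of 29.3% of VIL1 over all 22 steers, and PLS1 spread from 14.1% to 66.3% with a median of 40.4%.

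Other genes of the brush border were read from 6 lists, for GLP-2 against BSA. Of 10 other brush border myosins and terminal web proteins 4 rose and 0 fell, against 5.13% and 8.37% of all genes. Over all genes 13.5% were called in either direction. The list held 7 positive and 3 negative differences. Of these 4 were higher and 1 lower at an unadjusted edgeR p of 0.05 or less. MYO5B, which carries recycling membrane to the apex, rose by 0.99 ± 0.24 (SE) on the log2 scale, from 112 ± 51.2 CPM (SD, n = 11) with BSA to 220.0 ± 68.7 with GLP-2. MYO6, a motor moving toward the microvillus base, rose by 1.03 ± 0.29, MYO1D, a class I myosin of the brush border, by 0.94 ± 0.24, and the non-muscle myosin heavy chain MYH14 by 1.08 ± 0.34. MYH14 was outside the naming rule and is given as the remaining call of its list. The median of the 10 was 0.08, and with the block 3 were called (MYH14 padj = 0.0543). Leaving out the 4 follicle-rich steers gave 0.69 for MYO5B, 0.72 for MYO6 and 0.61 for MYO1D, with 0 called in this and in each of the other 5 lists.

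Of 15 genes of actin and its regulators 7 had a positive and 8 a negative difference, with a median of -0.07. The 2 that fell and the 0 that rose stand against 8.37% and 5.13% of all genes, and the 2 calls in all are a share near the 13.5% of all genes called. At an unadjusted edgeR p of 0.05 or less 4 were higher and 5 lower, against 16.5% and 18.1% of all genes. TPM3, a tropomyosin, fell by 0.46 and the filopodial bundler FSCN1 fell by 0.61 on the log2 scale, and neither was called with the block (padj = 0.0666 and 0.104). The cytoplasmic actins ACTG1 and ACTB, the latter named after its values were seen, tended to be lower at -0.48 ± 0.17 and -0.39 ± 0.15 (SE), with adjusted p-values of 0.0551 and 0.0796. DESeq2 called 1 gene of the list higher and 5 lower.

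Both partners of the adhesion complex listed here were uncalled. ANKS4B, a scaffold that binds harmonin and MYO7B, differed by 0.73 ± 0.31 (SE) on the log2 scale (padj = 0.105, unadjusted p = 0.0288, uncalled by DESeq2 too), and the MYO7B light chain CALML4 by 0.13 ± 0.20 (padj = 0.659). Of 11 ezrin scaffolds and kinases 0 were called, with a median of 0.27. The smallest p-values there were those of the small GTPase RAP2A at 0.52 ± 0.19 (padj = 0.0627), the scaffold NHERF2 (SLC9A3R2 in the table) at -1.35 ± 0.50 (padj = 0.0664) and the scaffold PDZK1 at 1.05 ± 0.45 (padj = 0.106). At an unadjusted p of 0.05 or less there were 2 higher and 1 lower, and DESeq2 called 1 higher and 1 lower.

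Of 8 apical trafficking genes 1 rose, against 5.13% of all genes, namely the RAB11 effector RAB11FIP1, by 0.96 ± 0.29 (SE) on the log2 scale (padj = 0.0366, and 0.0512 with the block). The apical fusion proteins STX3 and STXBP2 differed by 0.44 ± 0.19 and 0.28 ± 0.16 and were not called. Of 19 relatives of the 10 genes 17 were tested, 10 with a positive and 7 with a negative difference. Of these 2 rose and 0 fell, against 5.13% and 8.37% of all genes, and at an unadjusted edgeR p of 0.05 or less 4 were higher and 3 lower. The 2 were the villin relatives SCIN (scinderin) and SVIL (supervillin), which rose by 0.70 ± 0.21 and 0.81 ± 0.25, with adjusted p-values of 0.0528 and 0.0601 with the block. The ezrin relative MSN (moesin), at -0.39 ± 0.14, tended to be lower (padj = 0.0582). The median of the 17 was 0.13.

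The genes most like the group were sought among 13086 genes, by the correlation of log2 CPM with the mean z score of the 10 genes over 22 steers. SOAT2, which esterifies cholesterol in enterocytes, was closest (r = 0.98), followed by the palmitoyltransferase ZDHHC9 (0.98), the junctional adhesion molecule F11R (0.98), the lipase LIPH (0.97) and the protease inhibitor SPINT1 (0.97). These 5 values are a description of shared variation in the same libraries. The 5 genes were picked over the same steers, with any GLP-2 difference included. Their own differences are therefore not independent of those of the 10 genes and add no support to them. Between GLP-2 and BSA, F11R rose by 0.70 ± 0.23 (SE) on the log2 scale (padj = 0.0438, 0.0560 with the block, and 0.374 without the 4 follicle-rich steers, at 0.47), and the other 4 tended to be higher, at 0.71 to 1.20, with adjusted p-values from 0.0514 to 0.0982.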

How the data were processed

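RNA-seq counts of the jejunal mucosa of 22 steers were analysed. Per the submitters' processing notes, the authors used HISAT2 2.0.5, StringTie 1.3.3b, featureCounts 1.5.0-p3 and DESeq2 1.20 with the genome ARS-UCD1.2. The authors deposited raw counts per gene, which are whole numbers without normalization, and FPKM values, in which the authors scaled the same counts to each gene's length and each library's size. Counts were used for all tests, FPKM for comparing levels between genes and as an alternative. Depth, given with the results, sets the precision, and no pair of libraries was identical.

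With R 4.3.3 and edgeR 4.0.16, genes were kept by filterByExpr (minimum count 10), normalized by TMM and compared by the quasi-likelihood test with Benjamini-Hochberg adjustment over all genes tested (threshold 0.05, tendency up to 0.1). Log2 CPM used a prior count of 2. Both main effects were fitted on pooled steers, and the pairwise contrasts and the interaction in a model of all 4 treatments. Alternatives used DESeq2 1.42.0 and limma 3.58.1 (pseudocounts 1 and 0.1), other normalizations, filters and covariates, a gene length correction, and each steer left out in turn.

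The block numbers in the labels mark body-weight blocks, as the study's methods state, and therefore pair the steers by design. The model given first has no block because the study's methods did not use one. Over 30 pairs of same-block steers in different treatments, the correlation of deviations from the treatment means averaged 0.03 (-0.46 to 0.39), against -0.01 over 151 other pairs.

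The 10 genes and all gene lists were chosen with earlier results of these data known. All 10 genes are named, with the 3 genes of smallest p between GLP-2 and BSA from each of the 6 other brush border lists and the 5 genes most correlated with the group. On simulated counts for GLP-2 against BSA (13934 genes), the test recovered 45 of 91 genes changed by a log2 value of 1 and 77 of 89 changed by 2, with 0 false calls. For the interaction (14905 genes) it recovered 1 of 98 and 34 of 99. Simulated counts were drawn for each gene separately, without the variation between steers that genes share in these data. The recovery and the 0 false calls therefore do not measure errors in these data.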

Additional observations from a re-analysis of the deposited data

How the results depend on the processing

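For GLP-2 against BSA, 3 of the 10 genes were called, and the count depended on the processing. It was 7 with DESeq2's Wald test, where 21.5% of all genes were called, 6 with limma on log2(FPKM + 1) and 6 on log2(FPKM + 0.1), 1 with no filter on low counts and 1 with the gene length correction. It was 0 with the replicate block, 0 with the replicate block and the gene length correction together, 0 with the B cell follicle score as a covariate, 0 with the general epithelium score as a covariate, and 0 without the 4 steers whose follicle score was above 5, an alternative added after the data had been seen. Over all genes, 1881 were called without the block, 689 with it and 2999 with DESeq2. With either score as a covariate 0 were called, and 0 without those 4 steers. For the limma, unfiltered and length-corrected fits that number is not given here. Their counts therefore cannot be read as particular to the 10 genes. Leaving out each steer in turn gave 0 to 8 of the 10 genes, without the share of all genes beside it. Of these 22 fits 8 were within 1.5 times of the reported count. In casein + GLP-2 against casein, DESeq2 called 2 where edgeR called 0, without DESeq2's share of all genes beside it. The block changed no call of the 10 genes in the other comparisons.

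With the follicle score as a covariate the log2 difference between GLP-2 and BSA reversed for VIL1 (-0.041), ESPN (-0.17), USH1C (-0.021) and EZR (-0.0032), and with the epithelium score for ESPN (-0.10). For EZR, leaving out 1 steer gave -0.011 to 0.28. The cause of these changes was not tested.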
